A study of Homo sapiens with 12 samples.

Results

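The genes described here encode the proteins that make microRNAs (miRNAs), load them onto Argonaute, carry out silencing and remove small RNAs. The set is a fixed list of 30 genes, taken by symbol from the RNA-seq table and ordered by step. All 30 were found among its 55765 gene names, and 29 passed the filter on low counts among 18843 genes tested. LIN28A was the member that did not pass. RNA was measured in HEK293T, an established line from embryonic kidney that expresses the SV40 large T antigen (the growth protocol in the labels writes HEK293). Cells received either siRNA against ERI2, an exonuclease related to ERI1, or a control siRNA. The dose was 50 nM in both groups, given in a first round and again 48 hours later, and cells were harvested 72 hours after the second round. Each group has 3 RNA-seq libraries and 3 miRNA-seq libraries, and all groups share the cell line and the reagent.

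The labels do not say that replicates came from separate cultures, so the p-values here cover the spread among libraries of a group, and that spread may be technical. The groups hold no second ERI2 siRNA and no rescue, and off-target effects and loss of ERI2 cannot be told apart. In bulk RNA, a change in RNA per cell and a change in the share of cells that hold it cannot be told apart either. RNA-seq libraries held 29143596 to 38306631 counts, and miRNA-seq libraries 723224 to 1029265 counts. Of the line's markers, LIN28B was at 103 to 136 CPM (counts per 1e+06, on TMM-scaled library sizes) with overlapping groups, and PAX2 was at 0.486 to 1.32 CPM. The neurofilament genes NEFL and INA fell by 0.50 and 0.49 on the log2 scale (adjusted p = 0.0137 and 0.0274 in edgeR's test), and NEFM was at -0.44 (0.0530). Of markers of other cell types, PTPRC (blood) had at most 1 count in a library. ALB (liver) had at most 12 and CD14 (monocytes) at most 21. COL3A1 (fibroblasts) was detected throughout, with 173 to 225 counts (5.32 to 6.40 CPM) under control siRNA. Under ERI2 siRNA it had 62 to 116 counts (1.96 to 3.83 CPM). Its log2 fold change was -1.05 (adjusted p = 0.00990 in edgeR's test). The part of these shifts in the results below was not tested. ERI2, the target, measured 54.4, 58.2 and 54.4 CPM in control libraries and 34.6, 35.8 and 32.5 CPM in ERI2 siRNA libraries, 61.5% of the control level. The replicate 1 libraries stood apart. On the first principal component of log2 CPM, which held 45.2% of the variance, control replicate 1 was at -6.29 against -31.8 and -32.4 for the other controls. ERI2 replicate 1 was at 8.45 against 25.7 and 36.4. Log2 fold changes with replicates 2 and 3 alone are given for the members whose call changed, or whose value moved by more than 1 SD, without these libraries. The replicate 1 libraries were singled out from these same data, where each lay nearest to the other group on this component. The p-values of that fit are therefore descriptive and not an independent check.

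A miRNA gene is first transcribed as a long hairpin-bearing RNA. In the nucleus the Microprocessor, made of the nuclease Drosha and its RNA-binding partner DGCR8, cuts the hairpin free, and Exportin-5 carries it out with the GTPase Ran. In the cytoplasm Dicer, with TARBP2 or PRKRA, cuts off the loop, and 1 strand stays in an Argonaute protein. Argonaute recruits a TNRC6 (GW182) scaffold, which brings in the deadenylases that silence the target mRNA. Terminal uridyltransferases can add tails to precursors and mature miRNAs, and exonucleases remove tailed or used RNAs.

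Most of this machinery differed little between the groups. Of the 29 tested members, TNRC6A and TARBP2 rose, none fell and 27 did not pass edgeR's quasi-likelihood test at an adjusted p under 0.05. Across all genes tested, 4.29% were called higher and 4.25% lower, so 2 of 29 is a share close to that background. At an unadjusted p under 0.05, 6 members were higher and 2 lower, against 13.4% and 13.1% of all genes. DESeq2 called 3 members higher (DGCR8, TARBP2 and TNRC6A) and 0 lower, against 5.48% and 5.45% of all genes. With limma-voom 2 members were higher (TARBP2 and TNRC6A) and 0 lower, against 4.18% and 3.99% of all genes. All 3 ERI2 siRNA libraries lay above all 3 controls for 7 members and below them for 2, against 14.1% and 15.6% of all genes. The largest change among members was 1.26-fold, and the median size of a change, up or down, was 0.0858 on the log2 scale against 0.174 for all genes. Each of the 29 members had a 95% interval inside a 1.5-fold change in both directions, against 60.1% of all genes. The median SD of log2 CPM within groups was also smaller for members, 0.0747 against 0.137 for all genes. The part of this smaller spread in the size of changes and the width of intervals was not tested. The median log2 fold change (ERI2 siRNA minus control siRNA) was 0.04 for members and 0.003 for all genes. Scaling by total library size moved the medians to 0.10 and 0.06, changed the split over all genes from 809 higher and 800 lower to 976 and 463, and called 4 members higher: TNRC6A, TARBP2, DICER1 and XPO5. Under that scaling 5.18% of all genes were called higher and 2.46% lower.

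**Figure D1:**
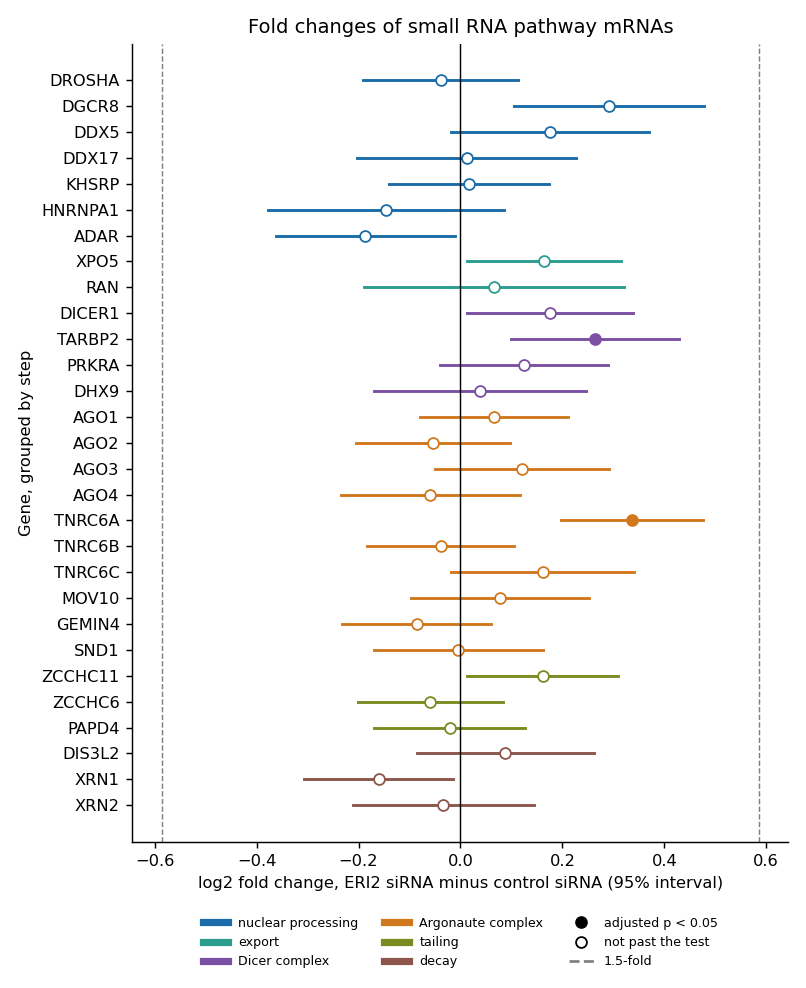
Log2 fold change of each tested member, ERI2 siRNA minus control siRNA, with its 95% interval from edgeR (n = 3 libraries a group); genes are grouped by step, filled points passed at an adjusted p under 0.05 and dashed lines mark 1.5-fold. TNRC6A and TARBP2 are the filled points, and all 29 intervals lie between the dashed lines.

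Among genes of nuclear processing, none of 7 passed the test. DROSHA, the nuclease of the Microprocessor, measured 109, 107 and 99.8 CPM in control libraries and 97.1, 101 and 109 CPM in ERI2 siRNA libraries. These groups overlapped throughout, with a log2 fold change of -0.04 (SE 0.0713, 95% interval -0.19 to 0.11). Its partner DGCR8 measured 129, 107 and 111 CPM in control libraries and 127, 148 and 149.8 CPM in ERI2 siRNA libraries. Control replicate 1 was as high as ERI2 replicate 1, while the other ERI2 siRNA libraries were above every control. The log2 fold change of DGCR8 was 0.29 (SE 0.0868, adjusted p = 0.0522 in edgeR's test), which did not pass. With replicates 2 and 3 alone it was 0.44 (adjusted p = 0.000163 in edgeR's test), and without control replicate 3 it was 0.25 (adjusted p = 0.207 in edgeR's test). DESeq2 on all libraries gave 0.29 with an adjusted p of 0.0229. The number of DGCR8 counts for each DROSHA count, a ratio within a library that does not depend on the scaling, was 1.18, 1.01 and 1.11 in controls and 1.31, 1.46 and 1.38 in ERI2 siRNA libraries. That ratio did not overlap between the groups. How often ratios of other gene pairs do not overlap was not computed, for this ratio or those below. Of all single genes, 14.1% had every ERI2 siRNA library above every control and 15.6% had every one below.

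ADAR, which edits adenosine to inosine in hairpin RNA, measured 330.0, 359 and 365 CPM in controls and 323, 319.6 and 283 CPM in ERI2 siRNA libraries. All 3 of the latter were lower, but the log2 fold change of -0.19 did not pass (SE 0.0819, adjusted p = 0.162 in edgeR's test). The helicase gene DDX5, a Microprocessor cofactor, measured 848, 908 and 829 CPM in controls and 978, 939 and 1002 CPM in ERI2 siRNA libraries. The groups did not overlap, yet its log2 fold change of 0.18 did not pass (adjusted p = 0.236 in edgeR's test). CEP95, which overlaps DDX5 on the other strand in RefSeq, was higher by 0.28 (adjusted p = 0.0360 in edgeR's test), and reads of the overlap cannot be told apart because the strand setting of the counting is not given. The related helicase DDX17 had a log2 fold change of 0.01 and KHSRP, which binds G-rich terminal loops, one of 0.02. KDELR3, which overlaps DDX17 on the other strand, fell by 0.52 on the log2 scale (adjusted p = 0.00516 in edgeR's test). HNRNPA1, which binds the loop of some precursors, measured 797, 1007 and 955 CPM in controls and 884, 855 and 754 CPM in ERI2 siRNA libraries. Control replicate 1 was below 2 of the ERI2 siRNA libraries, and the log2 fold change of -0.15 (SE 0.108) did not pass. The table lists 75 HNRNPA1 pseudogene rows, with counts that add to 2.29% of those of HNRNPA1, so its value is uncertain where reads were split among near-copies.

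**Figure D2:**
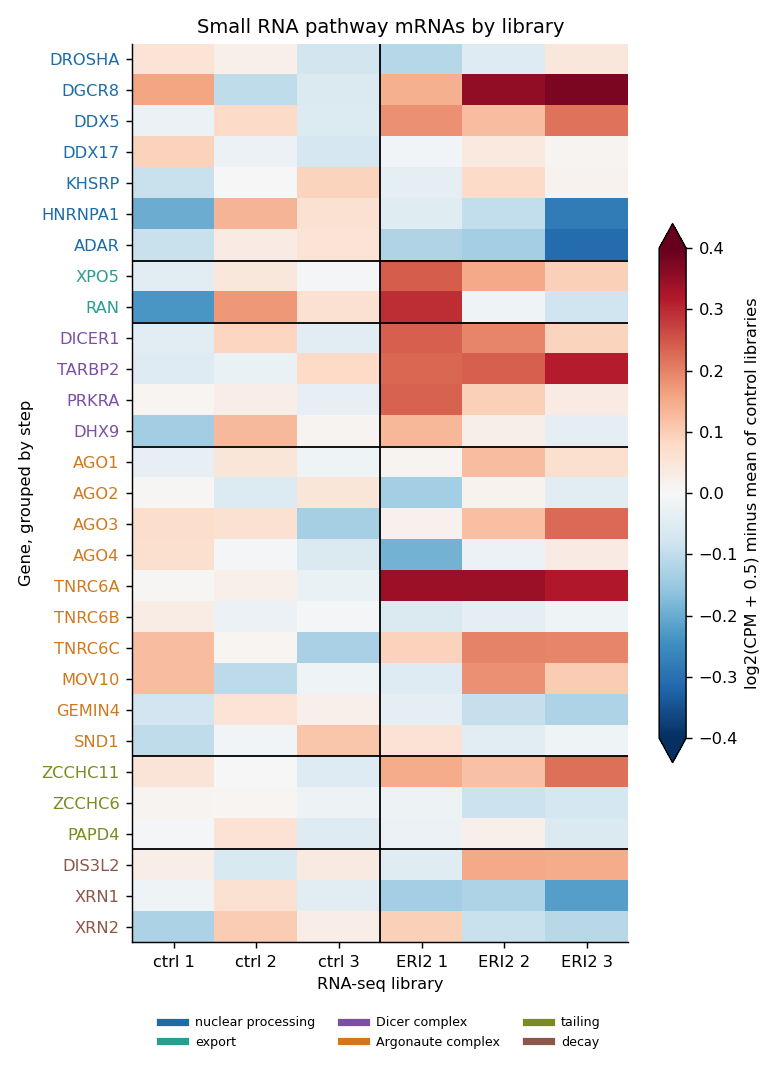
Level of each tested member in each RNA-seq library, as log2(CPM + 0.5) minus the mean of the 3 control libraries (colour scale from -0.4 to 0.4); rows are grouped by step and columns are the 3 control and 3 ERI2 siRNA libraries. TNRC6A and TARBP2 are above the control mean in all 3 ERI2 siRNA libraries, as are members that did not pass, DDX5, XPO5, DICER1 and ZCCHC11 among them. RAN, DHX9 and XRN2 are among the members lowest in control replicate 1.

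The export genes did not pass. XPO5, the export receptor for precursor hairpins, measured 169, 179.6 and 173 CPM in controls and 206, 193 and 186 CPM in ERI2 siRNA libraries. Every ERI2 siRNA library was above every control, with a log2 fold change of 0.16 (SE 0.0703, adjusted p = 0.155 in edgeR's test). Under total library size it was 0.22 (adjusted p = 0.0416 in edgeR's test), and with replicates 2 and 3 alone it was 0.10 (adjusted p = 0.281 in edgeR's test). RAN, whose GTP-bound form holds Exportin-5 on its cargo, measured 448, 595 and 549.5 CPM in controls and 647, 521 and 499 CPM in ERI2 siRNA libraries. Its lowest and its highest value were both in replicate 1 libraries. The log2 fold change of RAN was 0.07 with all libraries and -0.17 with replicates 2 and 3 alone, neither past the test (adjusted p = 0.764 and 0.0611 in edgeR's test). RAN also has 9 pseudogene rows in the table, with counts that add to 0.569% of its own.

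In the Dicer complex, all 4 genes had a log2 fold change above 0, and TARBP2 passed the test. TARBP2 encodes TRBP, an RNA-binding partner that helps Dicer position its substrate. It rose from 34.3 ± 1.74 CPM (SD, n = 3) to 41.2 ± 1.36 CPM. The single libraries were at 33.0, 33.6 and 36.3 CPM under control siRNA and at 40.3, 40.6 and 42.8 CPM under ERI2 siRNA, from 1042 to 1367 counts each. The groups did not overlap, with a log2 fold change of 0.26 (SE 0.0772, 95% interval 0.10 to 0.43). The adjusted p was 0.0488 in edgeR's test, just inside the threshold, and it ranged from 0.0254 to 0.199 over 15 other settings, 7 of which did not call it. TARBP2 did not pass without control replicate 1 (adjusted p = 0.0907 in edgeR's test), control replicate 2 (0.141), control replicate 3 (0.0993), ERI2 replicate 2 (0.141) or ERI2 replicate 3 (0.199). It passed without ERI2 replicate 1 and with replicates 2 and 3 alone. In RefSeq TARBP2 overlaps MAP3K12, which lies on the other strand and had a log2 fold change of -0.30 (adjusted p = 0.134 in edgeR's test). Reads of this overlap cannot be told apart either, because the strand setting is not given.

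DICER1, the gene of the nuclease itself, measured 239, 261 and 238 CPM in controls and 290.5, 282 and 262 CPM in ERI2 siRNA libraries. The groups did not overlap, by a margin of less than 1 CPM, and the log2 fold change of 0.18 did not pass (SE 0.0762, adjusted p = 0.158 in edgeR's test; 0.0475 under total library size and 0.454 without control replicate 3). With replicates 2 and 3 alone DICER1 was at 0.12 (adjusted p = 0.214 in edgeR's test). PRKRA encodes PACT, the other RNA-binding partner of Dicer. Its controls were at 49.5, 50.1 and 48.2 CPM and its ERI2 siRNA libraries at 58.0, 52.7 and 50.4 CPM, a log2 fold change of 0.12 (adjusted p = 0.319 in edgeR's test). The count of TARBP2 for each PRKRA count was 0.668, 0.671 and 0.754 in controls and 0.694, 0.770 and 0.849 in ERI2 siRNA libraries, which overlapped. TARBP2 for each DICER1 count overlapped too, from 0.129 to 0.152 in controls and from 0.139 to 0.163 in ERI2 siRNA libraries. These ratios thus do not separate TARBP2 from PRKRA or DICER1, and no such ratio was taken to DHX9. DHX9, a helicase that takes part in loading, had a log2 fold change of 0.04, with control replicate 1 the lowest of its 6 libraries. With replicates 2 and 3 alone the value for DHX9 was -0.08, and neither passed.

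None of the 4 Argonaute genes passed, and the groups overlapped for each. AGO1 measured 138, 146 and 139 CPM in controls and 142, 153 and 147 CPM in ERI2 siRNA libraries, a log2 fold change of 0.07 (95% interval -0.08 to 0.21). AGO2, the member of the family with strong slicing activity, measured 79.7, 76.5 and 82.2 CPM in controls and 72.3, 80.2 and 77.1 CPM in ERI2 siRNA libraries, a log2 fold change of -0.05 (95% interval -0.21 to 0.10). AGO3 was at 0.12 and AGO4 at -0.06 on the same scale. The number of AGO2 counts for each AGO1 count was 0.580, 0.525 and 0.591 in controls and 0.510, 0.524 and 0.524 in ERI2 siRNA libraries. That ratio was lower in all 3 ERI2 siRNA libraries, by a narrow margin.

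TNRC6A, which encodes the GW182 scaffold, gave the clearest difference of the set. It rose from 127 ± 2.18 CPM (SD, n = 3) in controls to 161 ± 1.54 CPM in ERI2 siRNA libraries. The libraries were at 128, 129 and 125 CPM under control siRNA and at 162, 162 and 159 CPM under ERI2 siRNA, from 3590 to 5465 counts each. The gap between the groups was wider than the spread within either, and the replicate 1 libraries lay with the others. The log2 fold change was 0.34 (SE 0.0649, 95% interval 0.20 to 0.48, adjusted p = 0.00940 in edgeR's test), the only member past an adjusted p of 0.01. Its value stayed between 0.31 and 0.39 over 15 other settings. Among the settings that left out 1 library, it did not pass without control replicate 3 (adjusted p = 0.0641 in edgeR's test) or without ERI2 replicate 2 (0.0536). Nor did it pass with the replicate number as a block in the fit (adjusted p = 0.0778 in edgeR's test).

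The paralogs of TNRC6A did not pass the test. TNRC6B measured 228, 219 and 222 CPM in controls and 214, 217 and 220.2 CPM in ERI2 siRNA libraries, which overlapped, with a log2 fold change of -0.04 (SE 0.0675, 95% interval -0.18 to 0.11). TNRC6C measured 40.9, 37.7 and 34.3 CPM in controls and 40.0, 43.2 and 43.1 CPM in ERI2 siRNA libraries, a log2 fold change of 0.16 (adjusted p = 0.239 in edgeR's test; 0.0350 with replicates 2 and 3 alone, where it was 0.26). Without control replicate 3 TNRC6C was at 0.09 (adjusted p = 0.642 in edgeR's test). TMC6, which overlaps TNRC6C on the other strand in RefSeq, rose by 0.61 on the log2 scale (adjusted p = 0.0151 in edgeR's test), and reads of the overlap cannot be told apart. For each TNRC6B count there were 0.562, 0.591 and 0.564 TNRC6A counts in controls and 0.756, 0.749 and 0.723 in ERI2 siRNA libraries. This ratio within a library does not depend on the scaling, did not overlap between the groups, and moved by 0.38 on the log2 scale. For each TNRC6C count there were 3.13, 3.43 and 3.65 TNRC6A counts in controls and 4.04, 3.76 and 3.70 in ERI2 siRNA libraries, a smaller gap. The other factors of this step did not pass: MOV10, a helicase bound to Argonaute, was at 0.08, GEMIN4 at -0.09 (-0.15 with replicates 2 and 3 alone, not past the test), and the nuclease gene SND1 at -0.004.

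**Figure D3:**
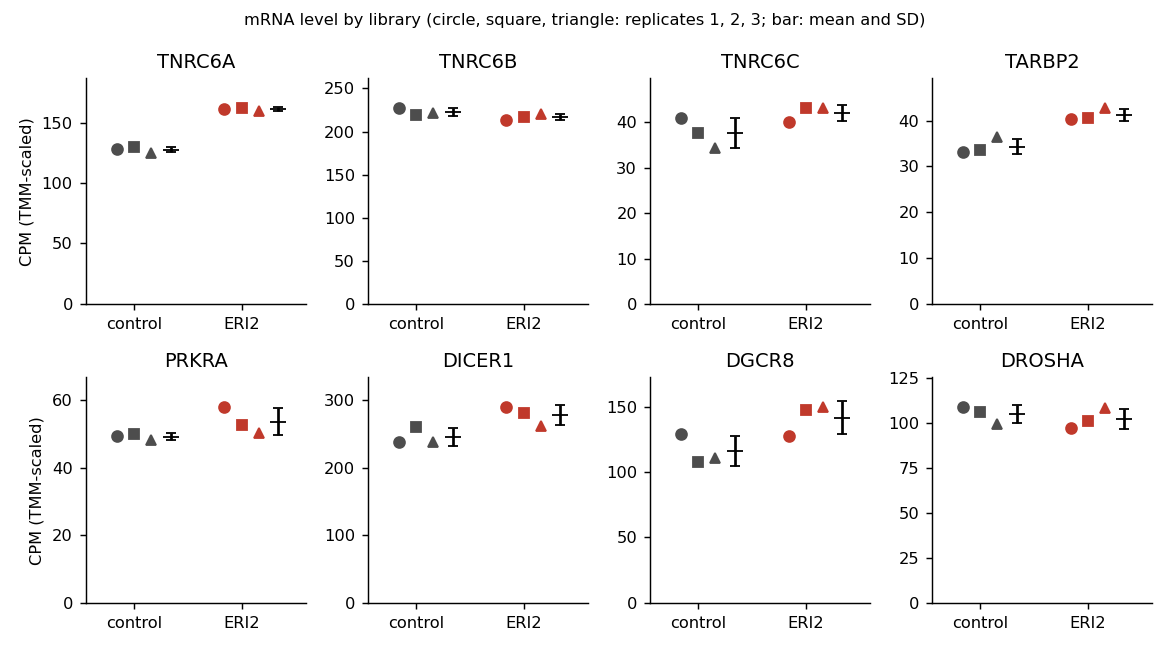
CPM in each RNA-seq library for TNRC6A and its paralogs, TARBP2 with PRKRA and DICER1, and DGCR8 with DROSHA; circles, squares and triangles are replicates 1, 2 and 3 and the bar gives mean and SD (n = 3). TNRC6A sits at 125 to 129 CPM in controls and 159 to 162 CPM in ERI2 siRNA libraries, while TNRC6B overlaps, and DGCR8 differs mainly outside replicate 1.

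The promoters of the called members are printed to show the bases upstream of their starts. They are the 250 bases before the RefSeq start (GRCh38.p14), read 5′ to 3′. TNRC6A lies at chr16:24729401-24729650 and TARBP2 at chr12:53500673-53500922, both on the + strand. Capitals mark matches, on either strand, to CCAAT, the GC box GGGCGG and the ETS motif CCGGAAG.
TNRC6A: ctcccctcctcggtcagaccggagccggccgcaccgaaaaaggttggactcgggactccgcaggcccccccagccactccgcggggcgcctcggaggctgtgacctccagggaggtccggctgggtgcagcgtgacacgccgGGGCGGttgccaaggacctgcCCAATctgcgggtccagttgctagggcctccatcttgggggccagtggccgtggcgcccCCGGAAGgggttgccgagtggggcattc
TARBP2: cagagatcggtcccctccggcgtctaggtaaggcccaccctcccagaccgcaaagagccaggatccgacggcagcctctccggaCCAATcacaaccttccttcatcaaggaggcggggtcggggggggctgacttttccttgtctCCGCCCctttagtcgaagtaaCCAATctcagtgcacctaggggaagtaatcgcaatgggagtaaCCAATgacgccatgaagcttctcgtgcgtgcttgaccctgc

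TNRC6A holds 1 CCAAT, 1 GC box and 1 ETS match, and TARBP2 holds 3 CCAAT and 1 GC box match, with no base in more than 1 motif. Neither holds TATAAA, the E-box CACGTG or the CRE letters TGACGTCA. CCAAT occurs in 32% of 35116 RefSeq windows of this length and in 12 of the 26 member promoters in the table, among them DROSHA, DGCR8, DICER1 and PRKRA, which were not called. The GC box occurs in 42.6% of all windows and in 19 of the 26, and the ETS letters in 8.52% and in 10 of the 26. TNRC6A is 71.6% G and C and TARBP2 58.8%, beside a median of 58% for all windows. These are matches of letters, not sites of binding.

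Of the tailing genes, none of the 3 tested passed. ZCCHC11 (TUT4), a uridyltransferase that tails let-7 precursors with LIN28, measured 173, 167 and 161 CPM in controls and 185, 181 and 195 CPM in ERI2 siRNA libraries. The groups did not overlap, and its log2 fold change of 0.16 did not pass with all libraries (SE 0.0688, adjusted p = 0.152 in edgeR's test) but did with replicates 2 and 3 alone (0.19, adjusted p = 0.0428 in edgeR's test). Its paralog ZCCHC6 (TUT7) measured 73.3, 73.1 and 71.7 CPM in controls and 71.7, 68.5 and 69.2 CPM in ERI2 siRNA libraries, a log2 fold change of -0.06 (95% interval -0.20 to 0.08). For each ZCCHC6 count there were 2.36, 2.29 and 2.25 ZCCHC11 counts in controls and 2.58, 2.65 and 2.81 in ERI2 siRNA libraries, with no overlap. PAPD4 (GLD2), a cytoplasmic poly(A) polymerase, was at -0.02. LIN28A, which blocks let-7 processing in stem cells, had 5, 7 and 6 counts in controls and 6, 7 and 14 in ERI2 siRNA libraries, too few for a test. LIN28A pseudogene rows held 54 counts against 45 for the gene itself, so these reads are uncertain.

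Of the exonuclease genes, none of 3 passed. XRN1, the cytoplasmic 5′-to-3′ exonuclease, measured 144, 152 and 141 CPM in controls and 133, 134 and 125 CPM in ERI2 siRNA libraries. Every ERI2 siRNA library was below every control, with a log2 fold change of -0.16 (SE 0.0683, adjusted p = 0.151 in edgeR's test). Its nuclear relative XRN2 was at -0.03, from 193 to 226 CPM in controls and from 195 to 225 CPM in ERI2 siRNA libraries. With replicates 2 and 3 alone XRN2 was at -0.17 (adjusted p = 0.0619 in edgeR's test). DIS3L2, which degrades uridylated precursor let-7, measured 43.6, 41.0 and 43.8 CPM in controls and 41.3, 47.6 and 47.5 CPM in ERI2 siRNA libraries, a log2 fold change of 0.09 (95% interval -0.09 to 0.26).

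The number of members called depended on which libraries entered the fit. Leaving out control replicate 1 or ERI2 replicate 1 singly gave 2 or 3 members higher, where 6.33% and 7.31% of all genes were called higher. Leaving out control replicate 3 or ERI2 replicate 2 gave 0, where 1.38% and 1.18% of all genes were called higher. The member counts thus moved with those of the whole table. With replicates 2 and 3 alone, 6 members were higher (DGCR8, MOV10, TARBP2, TNRC6A, TNRC6C and ZCCHC11) and 2 lower (ADAR and HNRNPA1). ADAR was then at -0.27 (adjusted p = 0.00772 in edgeR's test), HNRNPA1 at -0.29 (0.00533) and MOV10 at 0.20 (0.0452). In that fit 13.9% of all genes were called higher and 14.1% lower, so a larger count arose across the table too.

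**Figure D4:**
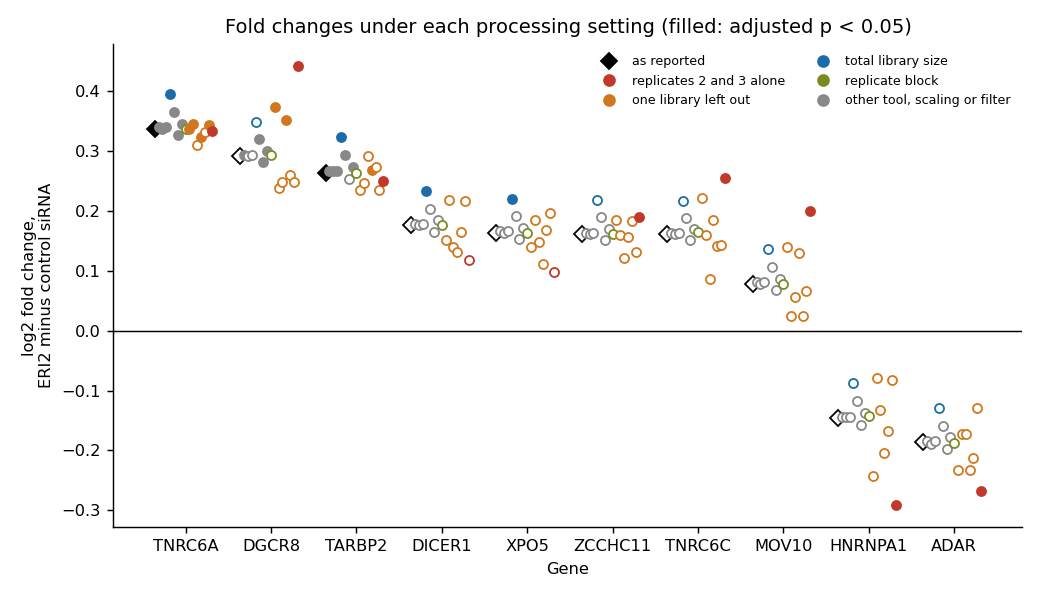
Log2 fold change, ERI2 siRNA minus control siRNA, under each processing setting for the 10 members that at least 1 setting called; diamonds are the values as reported, circles the alternatives, and filled symbols have an adjusted p under 0.05. No value crosses 0 for these 10 members, and TNRC6A is filled in the most settings.

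Of 69 other genes of the pathway, all tested, 3 were lower and 0 higher in edgeR's test, with 8 lower and 6 higher at an unadjusted p under 0.05. These counts stand beside 4.25% of all genes called lower and 4.29% higher, and 13.1% and 13.4% before adjustment, and 1 of the 3 lower genes is the siRNA target itself. DESeq2 called 2 of the 69 genes higher and limma-voom 0, against 5.48% and 4.18% of all genes. The median log2 fold change of this list was -0.03. ELAVL1, which encodes the AU-rich element binding protein HuR, measured 105, 114 and 106 CPM in controls and 71.7, 67.4 and 64.1 CPM in ERI2 siRNA libraries. Its level fell by 0.67 (log2 scale, SE 0.0721, adjusted p = 0.000632 in edgeR's test), to 62.6% of the control level, beside 61.5% for ERI2 itself. CNOT6L, a deadenylase of the CCR4-NOT complex that TNRC6 proteins recruit, fell by 0.30 (adjusted p = 0.0249 in edgeR's test), from 66.1 ± 2.10 to 53.7 ± 3.33 CPM (SD, n = 3). ERI2 was the third. In edgeR's test 0 of 11 genes of nuclear processing, 0 of 5 of export and 0 of 11 of Argonaute loading passed, with 2, 1 and 0 of them higher and 0 lower before adjustment (p under 0.05).

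Some members also encode miRNAs, which give another readout of their loci. In RefSeq, 13 mature miRNAs lie inside 6 members on the same strand: in DDX5, DGCR8, DICER1, DIS3L2, KHSRP and SND1. The miRNA table had enough counts to test 7 of them. The DGCR8 mRNA itself carries hairpins that the Microprocessor can cut, which lowers the mRNA and can release miR-1306. The mature sequences below are from RefSeq (GRCh38.p14), 5′ to 3′, with the seed (bases 2 to 8) in capitals. They are printed for reference, and the results on host genes rest on positions and counts, not on these bases. No seed is shared among the printed sequences.
miR-1306-5p (DGCR8): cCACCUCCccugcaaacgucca
miR-1306-3p (DGCR8): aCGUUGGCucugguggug
miR-5047 (DDX5): uUGCAGCUgcgguuguaaggu
miR-3940-5p (KHSRP): gUGGGUUGgggcgggcucug
miR-3940-3p (KHSRP): cAGCCCGGaucccagcccacuu

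miR-3940-5p and miR-5047 rose with TMM scaling, 2 of 7 hosted miRNAs, against 11.1% of the 1316 miRNA names called higher and 23% lower. miR-3940-5p measured 139, 105 and 118 CPM in controls and 162, 204 and 178 CPM in ERI2 siRNA libraries (log2 fold change 0.58, SE 0.155, adjusted p = 0.0103 in edgeR's test). miR-5047 rested on 7, 7 and 9 counts in controls and 39 in each ERI2 siRNA library, 12.8 to 19.4 against 26.4 to 32.4 CPM (log2 fold change 0.89, SE 0.287, adjusted p = 0.0282 in edgeR's test). It did not pass in DESeq2 (adjusted p = 0.0937), without control replicate 1 (0.126 in edgeR's test), without control replicate 2 (0.101) or without ERI2 replicate 2 (0.0704), and miR-3940-5p did not pass without control replicate 2 (0.0675). Their host mRNAs did not pass, with log2 fold changes of 0.02 for KHSRP and 0.18 for DDX5. miR-1306-5p, from DGCR8, had 17, 16 and 10 counts in controls and 21, 24 and 26 in ERI2 siRNA libraries. Its log2 fold change was -0.72 with TMM scaling (SE 0.277, adjusted p = 0.0603 in edgeR's test) and 0.49 under total library size (adjusted p = 0.118 in edgeR's test), so its direction is not settled. The other arm, miR-1306-3p, was at 0.20 and did not pass.

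These values depend on the scaling of the miRNA table: total library size called 6 of the 7 higher, where 78.3% of all miRNA names were called higher and 13.6% lower, and moved the median of all miRNA names from 0.05 to 1.27. The share of an arm among both arms of 1 hairpin does not depend on the scaling. miR-1306-5p made up 77.3%, 72.7% and 55.6% of miR-1306 counts in controls and 53.8%, 57.1% and 52% in ERI2 siRNA libraries, which overlapped. With 18 to 50 counts a library, exact 95% binomial intervals were as wide as 30.8% to 78.5%, and they cover counting error only. For miR-3940 the 5p share was 52.4%, 45.9% and 46.2% in controls and 51.8%, 57.7% and 54.5% in ERI2 siRNA libraries, which overlapped as well. The remaining hosted miRNAs tested, miR-3940-3p (0.21), miR-593-5p in SND1 (0.32) and miR-3173-5p in DICER1 (0.04), did not pass. miR-3618, the other product of DGCR8, had 1 count in 1 of 6 libraries.

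**Figure D5:**
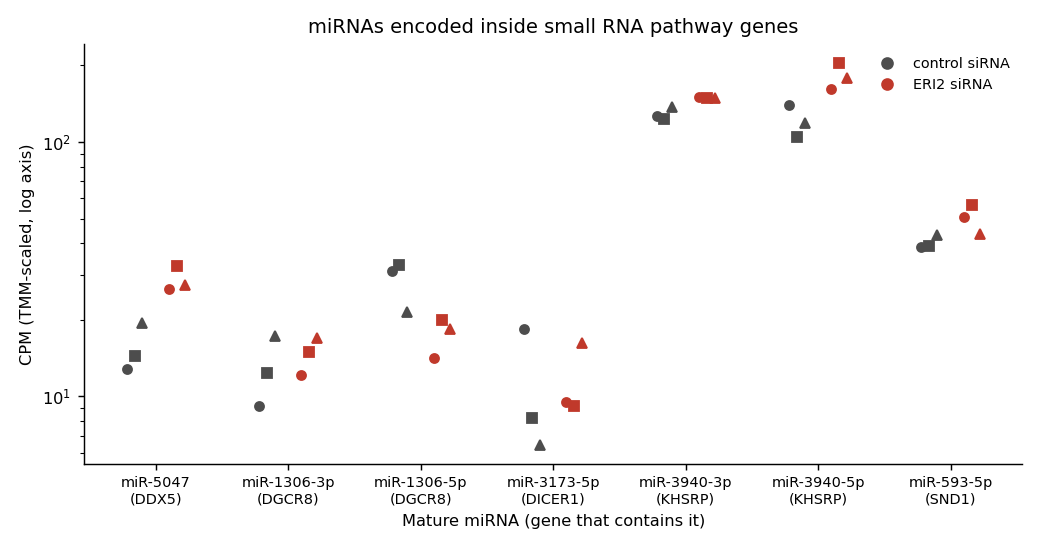
CPM (TMM-scaled, log axis) of the 7 tested miRNAs inside member genes, in 3 control and 3 ERI2 siRNA miRNA-seq libraries; circles, squares and triangles are replicates 1, 2 and 3. miR-3940-5p and miR-5047, which passed the test, and miR-3940-3p and miR-593-5p, which did not, lie above every control in all 3 ERI2 siRNA libraries. Of 1316 miRNA names tested, 283 lay above every control in this way and 342 below. miR-1306-5p lies lower on this scaling but turns to 0.49 (log2 fold change) under total library size.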

How the data were processed

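The authors deposited raw read counts per gene and per mature miRNA name, whole numbers with a different total in each library. The tools TopHat2 2.0.10, HTSeq 0.6.1p1 and CASAVA 1.8.2 and the build hg19 are named, with no role, per the submitters' processing notes; strand setting, annotation and miRNA counter are not given in these sources. Every column matched 1 sample by title. After the filterByExpr filter and TMM scaling, the quasi-likelihood test of edgeR 4.0.16 (robust; R 4.3.3) was run, adjusting p by Benjamini-Hochberg over all genes or miRNA names tested. DESeq2 1.42.0 and limma-voom (limma 3.58.1) were alternatives, with other scalings, filters, a replicate block and left-out libraries. The fit was tested on simulated data. Members, lists and settings were chosen with earlier results of these data known. Members past the test, those at an unadjusted p under 0.05 and the core of each step are given in full, other members by fold change; of the 69 pathway genes, those past the test are named. Members were matched to RefSeq (GRCh38.p14) for overlapping genes, hosted miRNAs and promoters, using position only; gene lengths were not used, so levels are not compared between genes.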

Additional observations from a re-analysis of the deposited data

How the results depend on the processing

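Members called higher (2) became 4 under total library size, 0 with the replicate block, 0 to 3 when 1 library was left out, 6 with replicates 2 and 3 alone and 1 at an adjusted p under 0.01; members called lower (0) became 2 with replicates 2 and 3 alone. Left-out libraries gave 0 members higher without control replicate 3 or ERI2 replicate 2 and 1 without control replicate 2 or ERI2 replicate 3. All genes called higher (809) became 1290 with no count filter, 105 with the replicate block, 176 to 1424 with 1 library left out, 2622 with replicates 2 and 3 alone and 139 at an adjusted p under 0.01. All genes called lower (800) became 463 under total library size, 98, 195 to 1327, 2670 and 145 under the last 4 of these settings. Pathway genes called higher (0) became 2 with DESeq2, with the upper quartile and with at least 1 CPM in 3 libraries, 5 under total library size, 0 to 1 with 1 library left out and 3 with replicates 2 and 3 alone; those lower (3) became 16 there. Hosted miRNAs called (2) became 1 with DESeq2, 6 under total library size and 0 to 2 with 1 library left out. Of 29 members, 18 kept their direction under all 15 alternatives and 11 turned in at least 1 without a call; 10 were called in at least 1. The labels do not say whether a replicate number marks a shared culture or day. Deviations of same-numbered RNA-seq libraries from their group means correlated at -0.30, -0.08 and -0.10 across genes. Deviations from a mean of 3 libraries are tied to each other, so these values cannot decide whether the libraries are paired. With the replicate block TNRC6A was at 0.34 (adjusted p = 0.0778 in edgeR's test) and TARBP2 at 0.26 (0.157), neither past the test. The cause of these shifts was not tested. Counts limit miR-5047, miR-1306, miR-3173-5p and miR-593-5p (21, 19 and 20 counts in controls). They do not limit the mRNAs of the 29 tested members, which have at least 983 counts a library. Of the other pathway genes, DND1 had 23 to 47 counts a library.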
